A study of Saccharomyces cerevisiae with 31 samples.

Results

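The genes described here are 9 heat shock genes of budding yeast: HSP82 and HSC82, which encode the cytosolic Hsp90 pair; STI1, a co-chaperone that joins Hsp70 to Hsp90; HSP104 and HSP78, the protein disaggregases of the cytosol and of the mitochondrial matrix; HSP26 and HSP42, the small heat shock proteins of the alpha-crystallin family; HSP12, a small membrane-associated stress protein; and BTN2, which sorts misfolded proteins into deposits. They were selected by gene identifier, for their roles in protein folding and aggregate handling, with earlier results of these data already known. They are 9 of the 5668 genes that entered the authors' adjustment for spt6-1004 if all were adjusted. RNA was sequenced from wild type (WT) and from spt6-1004, spt6-S8A and spt6-S8E strains, each named for its allele of SPT6, with 3 libraries for each of the 4 genotypes. SPT6 encodes a histone chaperone of transcribed genes, and the series concerns its phosphorylation by casein kinase 2. By their names, spt6-S8A puts alanine and spt6-S8E puts glutamate in place of serine. The labels give no strain background or number of clones, and do not say whether replicates were separate cultures, so the authors' p-values measure the spread between these libraries, which may be technical.

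All cultures, WT included, were grown in rich glucose medium at 30 °C to an optical density of 1, and the labels name no heat treatment of any of them. The spt6-1004 allele is temperature-sensitive in published work, and its effect on Spt6 protein at this temperature was not analysed here. The values are the authors' comparisons of each mutant with WT, as log2 fold changes, each with a standard error (SE) from DESeq2. Every listed gene has an adjusted p under 0.05, and here "listed" or "called" means present in such a table. No value per library was used, so depth per library is unknown, and the spread between libraries enters only through the SE. In RNA of whole cultures, more cells expressing a gene and more RNA per cell cannot be told apart.

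Molecular chaperones keep proteins folded, and their genes are a textbook case of inducible transcription in yeast. Hsp90 completes the folding of client proteins such as kinases, with help from co-chaperones. Small heat shock proteins hold unfolded proteins in a form from which Hsp70 and Hsp104 can extract and refold them. The heat shock factor Hsf1 drives HSP82, HSC82, HSP104, HSP26, HSP42, HSP78, STI1 and BTN2. The general stress factors Msn2 and Msn4 are the main activators of HSP12, and also act on HSP26, HSP104 and others.

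In spt6-1004, 7 of the 9 genes were listed as higher than WT and 0 as lower in the authors' deposited table. Of all adjusted genes, 5.63% were listed higher and 6.62% lower. The exceptions were HSC82 and STI1, which were listed in no table. At least 4-fold higher were 6 of the 9 genes, against 110 of the 5668 adjusted genes, or 1.94%. In spt6-S8A, 0 of the 9 genes were listed, where 5.34% of the 431 adjusted genes were, and in spt6-S8E 0 of 9 were listed, where 0.0176% of genes were, a single gene. The genes were chosen with earlier results of these data known, so these counts are no independent evidence that the genes stand apart. All counts are the authors' DESeq2 calls. Their p-values for uncalled genes are not known, so no count at an unadjusted p can be given.

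**Figure D1:**
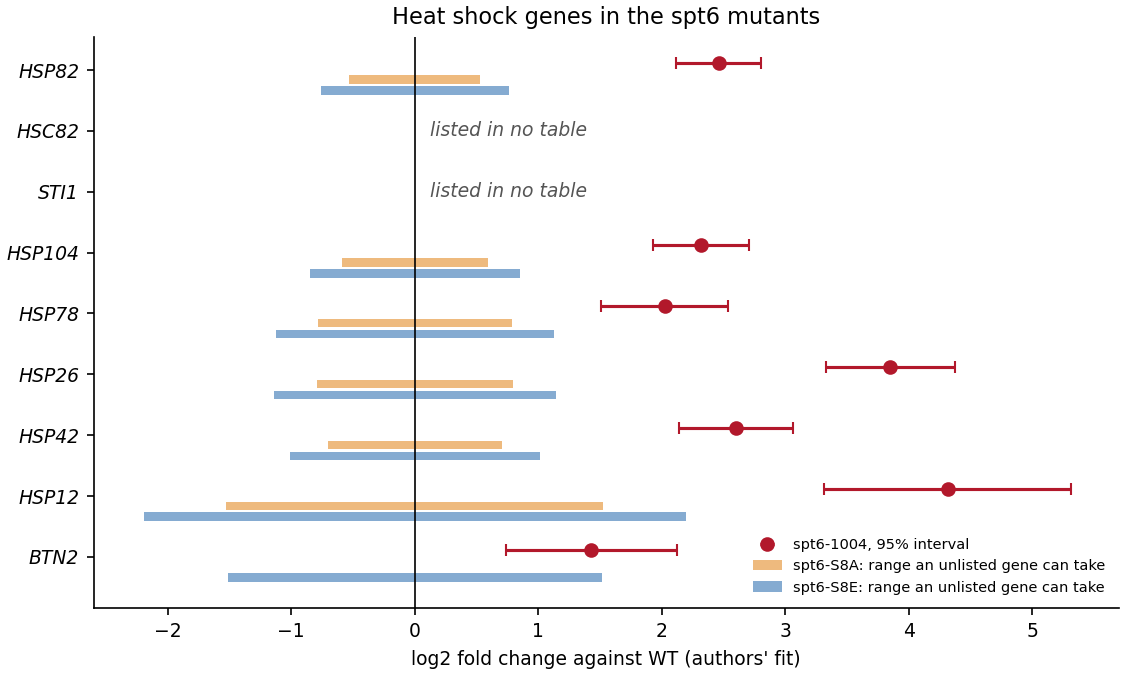
Log2 fold change against WT of the 9 genes. Red points are spt6-1004 values of the authors' deposited table with 95% intervals, all 7 above 0; gold and blue bars are the ranges that a gene absent from the spt6-S8A and spt6-S8E tables can take, computed with the SE of spt6-1004. HSC82 and STI1 have no value, and BTN2 has no spt6-S8A bar because it may not have been adjusted there.

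The Hsp90 genes come first. HSP82, the heat-inducible Hsp90 gene (YPL240C, chromosome XVI, 96496 to 98625, R64 coding gene), stood at 2.46 (SE 0.18, 95% interval 2.11 to 2.81) on the log2 scale in the authors' deposited table, or 5.50-fold over WT. Its adjusted p was 6.68e-41 by DESeq2. HSP82 had the fifth-largest Wald statistic of the 319 higher genes, the Wald statistic being the log2 fold change divided by its SE, but its log2 fold change ranked 67 among them. Its base mean, the authors' mean over all 12 libraries, was 703, which ranked 2 among the 694 genes in the authors' deposited table. A rank by Wald statistic depends on the SE as well as on the change, and the SE of HSP82 was small beside the median of 0.35 over the authors' deposited table.

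HSC82, the constitutive Hsp90 gene (YMR186W, chromosome XIII, 632355 to 634472), had no listed change in any of the 3 mutants. An adjusted gene absent from the spt6-1004 table had a p of at least 0.00613, so its Wald statistic could not exceed 2.74 in size. The largest SE of any listed gene was 0.54 in the authors' deposited table. At that SE an unlisted gene can have a log2 fold change of at most 1.47 in size, below the lower 95% limit of 2.11 for HSP82. Hiding a change as large as that of HSP82 would take an SE of 0.90. These limits hold only if HSC82 was adjusted, which its absence does not show. The limit of 1.47 also requires an SE of at most 0.54, and the SE of an unlisted gene is not known. HSP82 and HSC82 are near-identical in coding sequence and can share reads, so the split of reads between them is uncertain.

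STI1 (YOR027W, chromosome XV, 381053 to 382822), the co-chaperone that docks on Hsp90 and Hsp70, is bound by the same limits in spt6-1004, under the same conditions. Of 11 other Hsp90 co-chaperone genes, the authors' deposited table for spt6-1004 held 1 as higher and 1 as lower. These counts are near the shares of all adjusted genes, 5.63% higher and 6.62% lower. This list and the lists below were chosen with earlier results of these data known. The authors' deposited table put CPR6, a cyclophilin that binds Hsp90, at 1.59 (SE 0.19), with an adjusted p of 2.64e-14. HCH1, a homologue of the Hsp90 ATPase activator AHA1, fell: the authors' deposited table put it at -1.61 (SE 0.27), with an adjusted p of 1.28e-07. The other 9, AHA1, CPR7, CNS1, CDC37, SBA1, PPT1, SGT1, TAH1 and PIH1, were not listed in either direction.

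The disaggregases were both listed as higher. HSP104, the cytosolic hexamer that pulls proteins out of aggregates (YLL026W, chromosome XII, 88623 to 91349), stood at 2.32 (SE 0.20, 95% interval 1.93 to 2.71) in the authors' deposited table, with an adjusted p of 6.03e-29. HSP78, its mitochondrial homologue (YDR258C, chromosome IV, 971808 to 974243), stood at 2.02 (SE 0.26, 95% interval 1.51 to 2.54) in the authors' deposited table, with an adjusted p of 1.26e-12. These are 5.00-fold and 4.07-fold increases. Their log2 fold changes differed by 0.30, with a 95% interval of -0.35 to 0.94 (z test from the deposited SEs, adjusted p = 0.551). HSP104 and HSP82 differed by 0.14 (-0.38 to 0.66, adjusted p = 0.601).

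Most other mitochondrial chaperone genes were not listed. Of 9 besides HSP78, the authors' deposited table for spt6-1004 held 0 as higher and 1 as lower. This is near the 12.2% of all adjusted genes listed for spt6-1004, so the count does not set these genes apart. The lower gene was HSP10, the co-chaperonin of Hsp60, which the authors' deposited table put at -1.56 (SE 0.29), with an adjusted p of 2.13e-06. HSP60 itself, the matrix Hsp70 gene SSC1 and its partners MDJ1 and MGE1 were not listed. Whether HSP78 differed from each of these unlisted genes could not be tested, since they have no value.

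Of the small heat shock protein genes, HSP26 had the larger change. HSP26 (YBR072W, chromosome II, 382030 to 382674) stood at 3.85 (SE 0.27, 95% interval 3.33 to 4.37) in the authors' deposited table, or 14.4-fold over WT, with an adjusted p of 5.40e-44. It had the second-largest Wald statistic of all higher genes and ranked 13 by log2 fold change. HSP42 (YDR171W, chromosome IV, 806621 to 807748), which is active in unstressed cells too and builds cytosolic deposits, stood at 2.60 (SE 0.24, 95% interval 2.14 to 3.06) in the authors' deposited table, or 6.06-fold over WT, with an adjusted p of 1.05e-25. The log2 fold change of HSP26 exceeded that of HSP42 by 1.25, with a 95% interval of 0.55 to 1.95 (z test, adjusted p = 0.00131 over the 3 pairs fixed by their relation).

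HSP12 (YFL014W, chromosome VI, 107256 to 107585), whose short unfolded protein associates with membranes, had the largest change of the 7 listed genes. The authors' deposited table put it at 4.32 (SE 0.51, 95% interval 3.32 to 5.32), with an adjusted p of 4.54e-15. This is 19.9-fold over WT, and the interval spans 9.95-fold to 39.9-fold. It ranked 8 of 319 by log2 fold change but 28 by Wald statistic. Its SE was the largest of the 530 listed genes with a base mean of at least 10, followed by GRE1 at 0.48 and TKL2 at 0.47 in the authors' deposited table. Around its base mean of 88.25, within a factor of 1.5, lay 75 listed genes, HSP12 included, with a median SE of 0.24. Of these, 74 had a smaller SE than HSP12. Unlisted genes of like base mean have no SE here, and a large SE makes a gene less likely to be listed. The comparison thus lacks genes of large SE and small change.

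Counted the same way, 56 of 61 listed genes of similar base mean had a smaller SE than HSP26. The count was 33 of 69 for HSP42, 70 of 140 for HSP78, 132 of 212 for BTN2 and 7 of 12 for HSP104. HSP82 had the largest SE of only 3 genes near its base mean, itself included, so its place there says little. The size of the HSP12 increase is thus the least precise of the 7, and which libraries spread apart cannot be told from these tables.

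**Figure D2:**
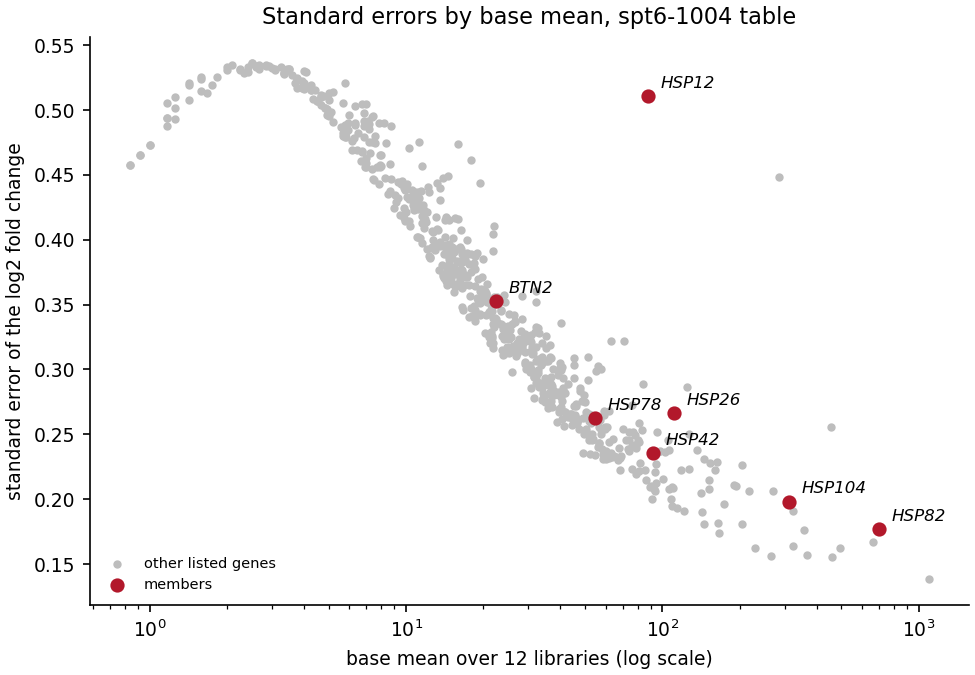
SE of the log2 fold change (vertical axis) against base mean on a log scale for the 694 genes listed for spt6-1004; red points are the members. HSP12 at 0.51 stands above all listed genes of like base mean, whereas HSP78 and HSP42 sit within the band of other listed genes. Unlisted genes have no SE and are not shown.

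BTN2 (YGR142W, chromosome VII, 772454 to 773686), which carries misfolded proteins to deposit sites and can cure yeast prions, had the smallest listed change. The authors' deposited table put it at 1.43 (SE 0.35, 95% interval 0.74 to 2.12), or 2.69-fold over WT, with an adjusted p of 0.000886. It ranked 203 of 319. With Bonferroni adjustment over the 5668 genes its call ended (adjusted p = 0.285), the only one of the 7 to do so. Its relative CUR1 was not listed. Of the 6 genes in the list of aggregate sorting and nuclear quality control, the authors' deposited table held 2 as higher and 0 as lower. Among all adjusted genes the shares were 5.63% higher and 6.62% lower. RPN4, the transcription factor of proteasome genes, was at 1.76 (SE 0.30). HUL5, a ubiquitin ligase gene, was at 1.00 (SE 0.36), with a DESeq2 adjusted p of 0.0486.

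**Figure D3:**
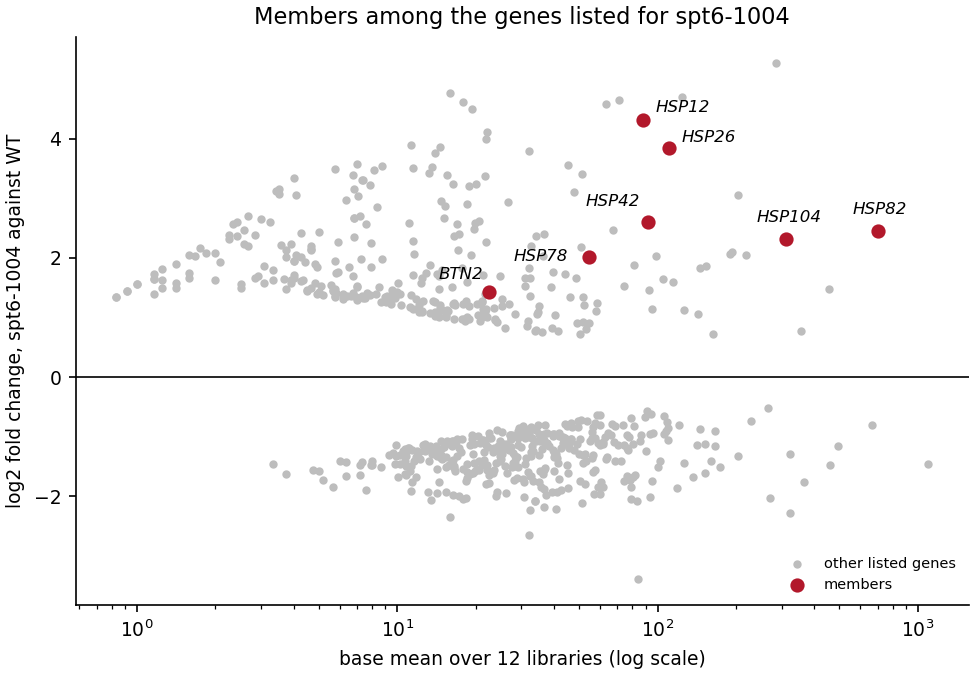
Log2 fold change in spt6-1004 against base mean on a log scale for all 694 listed genes. Members, in red, lie from BTN2 at 1.43 to HSP12 at 4.32, all on the higher side, and HSP82 and HSP104 are at the right with base means of 703 and 311.

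By log2 fold change in the authors' deposited table the order was HSP12, HSP26, HSP42, HSP82, HSP104, HSP78 and BTN2. All 21 pairs were compared by z test with Benjamini-Hochberg adjustment, a comparison added after the values were known, and 13 passed. HSP12 and HSP26, which head the order, differed by 0.47 (95% interval -0.66 to 1.60, adjusted p = 0.461). Each of them exceeded each of the 5 genes below, the narrowest gap being that of HSP26 over HSP42. HSP42, HSP82, HSP104 and HSP78 did not differ detectably in any pair, the widest gap being 0.57 between HSP42 and HSP78 (-0.12 to 1.27, adjusted p = 0.155). BTN2 was lower than all but HSP78, from which it differed by 0.59 (-0.27 to 1.46, adjusted p = 0.231). Shrinkage of log2 fold changes towards 0, the default of the authors' DESeq2 version, is stronger at a large SE, such as the 0.51 of HSP12. It may have narrowed the gaps between HSP12 and the other genes, and the tests do not allow for it. These tests take the errors of genes as independent, although all come from the same libraries. With errors correlated by -0.5, the difference of 0.89 between HSP104 and BTN2 no longer passed (adjusted p = 0.105 against 0.0446). With errors correlated by 0.5, that between HSP42 and HSP78 passed (adjusted p = 0.0323).

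A base mean over 12 libraries and a fold change together imply a level per group, if spt6-S8A and spt6-S8E are placed at the WT level and the base mean is a plain average over libraries on the scale that was fitted. That scale is not stated, so these levels are in the authors' own units and may hold differences in depth. On that footing HSP82 was at 331 per library in WT and 1819 in spt6-1004, in base mean units. Both other mutants were then allowed any value an unlisted gene can have at the SE of spt6-1004, and the fold change any value in its 95% interval. This gives 253 to 425 for WT and 1437 to 2119 for spt6-1004. The same ranges for HSP12 were 7.31 to 30.6 in WT and 191 to 340 in spt6-1004, around 15.4 and 307.

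HSP26 went from 25.4 (17.3 to 36.7) to 366 (296 to 403) and HSP104 from 156 (115 to 206) to 777 (584 to 929) in implied level. HSP42 went from 40.5 to 245, HSP78 from 30.8 to 125 and BTN2 from 15.7 to 42.4. The WT and spt6-1004 ranges did not overlap in any gene that has both, as the fold changes used to derive them already imply. On the same footing the spt6-1004 libraries supplied 86.9% of the 12-library sum for HSP12 and 82.8% for HSP26, so the base means of these genes mostly describe the mutant.

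Between genes, levels can be set side by side only per length. Per kilobase of coding sequence the implied WT level was 155 for HSP82, 57.1 for HSP104, 46.7 for HSP12, 39.4 for HSP26, 35.9 for HSP42, 12.8 for BTN2 and 12.7 for HSP78. In spt6-1004 it was 930 for HSP12, 854 for HSP82, 568 for HSP26, 285 for HSP104, 217 for HSP42, 51.5 for HSP78 and 34.4 for BTN2. By these points HSP12 moved from the third place to the first and HSP26 from the fourth to the third. Set per length, the implied range of HSP12 overlaps those of HSP104, HSP26 and HSP42 in WT. In spt6-1004 it overlaps those of HSP82 and HSP26. The order was not tested, so these places are not settled.

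**Figure D4:**
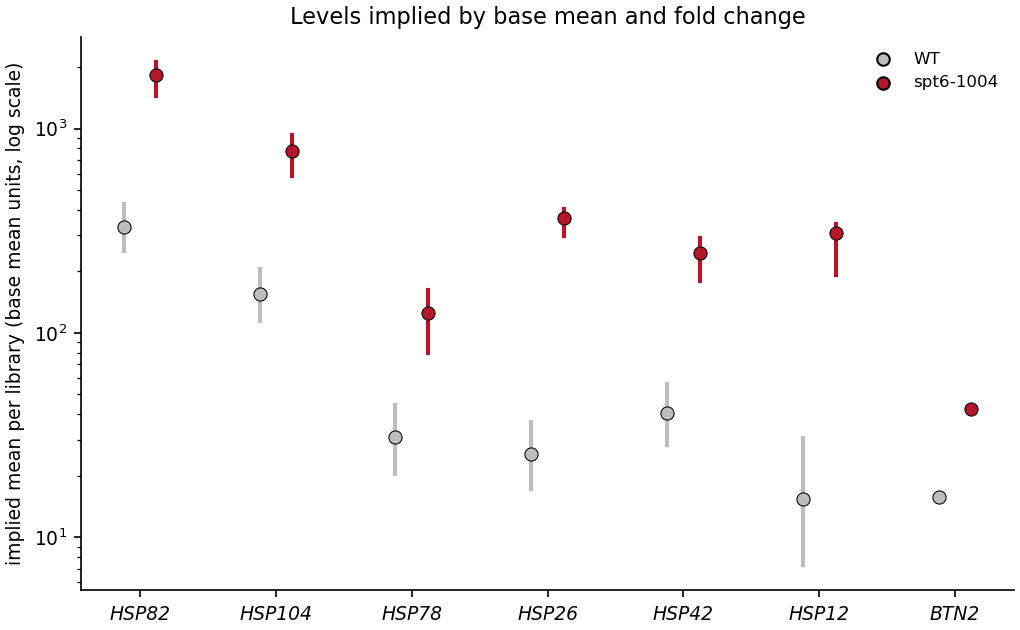
Implied mean per library in WT (grey) and spt6-1004 (red) for the 7 listed members, in base mean units on a log scale. Points place spt6-S8A and spt6-S8E at the WT level and take the fold change as a plain ratio of group means. Bars span what an unlisted gene, at the SE of spt6-1004, and the 95% interval of the fold change allow. The lowest WT point is HSP12 at 15.4 and BTN2, with no bar, is at 15.7.

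In spt6-S8A none of the 9 genes was listed. The base means of HSP82, HSP104, HSP78, HSP26, HSP42 and HSP12 exceed 32.6, the lowest in the authors' deposited table for spt6-S8A, so these 6 were taken as adjusted; BTN2, whose base mean the authors' deposited table for spt6-1004 gives as 22.4, may not have been. There the Wald statistic of an unlisted adjusted gene could not exceed 2.99 in size. With its SE from spt6-1004 this leaves HSP82 a log2 fold change of at most 0.53 in either direction, HSP104 0.59, HSP42 0.70, HSP78 0.78 and HSP26 0.80. For HSP12, with its large SE, changes up to 1.53, or 2.88-fold, could have gone unlisted. In each of the 6 genes this limit lies below the lower 95% limit of the spt6-1004 value, 3.32 for HSP12 and 1.51 for HSP78 being examples.

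The SE of spt6-S8A was set beside that of spt6-1004 in the 23 genes listed for both. It was 0.874 to 1.09 times as large. These genes were called in both mutants, whereas the members were called in spt6-1004 alone. Their level in spt6-S8A may be lower, where an SE can be larger, so this ratio may not hold for them. If their SE there is larger, the limits above are too small. No such ratio was taken for spt6-S8E. Of the 9 cytosolic Hsp70 and Hsp110 genes, 2 were listed for spt6-S8A, both higher, where 5.34% of the 431 adjusted genes were listed. How many of the 9 were adjusted is not known. In the authors' deposited table the stress-inducible SSA3 stood at 2.12 (SE 0.45) and SSA4 at 0.88 (SE 0.23), with DESeq2 adjusted p-values of 0.000291 and 0.00998. At the SE of spt6-1004, the limits for HSP82 and HSP104 are smaller than either value. The same 2 genes were at 5.28 and 3.05 in the authors' deposited table for spt6-1004, a comparison that shares the WT libraries.

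In spt6-S8E the limits are wider, since an unlisted gene can have a Wald statistic of up to 4.29 in size. With the SE from spt6-1004 they were 0.76 for HSP82, 0.85 for HSP104, 1.01 for HSP42, 1.13 for HSP78, 1.14 for HSP26, 1.51 for BTN2 and 2.19 for HSP12. A 2-fold change of HSP42, HSP78, HSP26, BTN2 or HSP12 could thus have gone unlisted. For BTN2 the limit exceeds the spt6-1004 value itself, so its absence does not separate the mutants. No difference between mutants could be tested for any of the 9 genes, as none has a value in more than 1 table.

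Other chaperone genes of the cytosol were listed in both directions in spt6-1004. Of the 9 Hsp70 and Hsp110 genes, the authors' deposited table held 3 as higher and 3 as lower. Among all adjusted genes the shares were 5.63% higher and 6.62% lower. SSE2, the stress-inducible Hsp110 gene, was at 1.20 (SE 0.31), while its main form SSE1 was at -0.52 (SE 0.16) and the ribosome-bound SSB1 and SSB2 were at -1.33 and -1.97 in the authors' deposited table. SSB1 and SSB2 are close paralogs, as are SSA3 and SSA4 with other SSA genes, and their values are uncertain. Of 10 J-protein genes, which stimulate Hsp70, the authors' deposited table held 1 as higher and 1 as lower, near the shares of all adjusted genes. The higher gene was SIS1 at 1.37 (SE 0.30). The lower was ZUO1, the partner of the SSB proteins at the ribosome, at -1.19 (SE 0.24).

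Among 11 other heat shock or stress protein genes, the authors' deposited table for spt6-1004 held 7 as higher and 0 as lower. The shares of all adjusted genes were 5.63% and 6.62%. This list too was chosen with earlier results of these data known, so its count is no independent evidence of a direction. By Wald statistic the 7 were led by GRE1, which encodes a hydrophilin, at 3.89 (SE 0.48). HSP31, a chaperone of the DJ-1 family, at 2.88 (SE 0.40), and DDR48 at 1.67 (SE 0.28) followed in the authors' deposited table. SIP18, another hydrophilin gene, at 3.08 (SE 0.53), the secreted cell wall protein gene HSP150 at 1.48 (SE 0.26) and DDR2 at 2.70 (SE 0.49) came next in the authors' deposited table. SIP18 and DDR2 had low base means, 3.5 and 7.17. HSP30 and the relatives of HSP31, namely HSP32, HSP33 and SNO4, were not listed.

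Of 18 marker genes of Msn2 and Msn4, the authors' deposited table for spt6-1004 held 16 as higher and 0 as lower. Among all adjusted genes the shares were 5.63% and 6.62%. MSC1 at 3.80 (SE 0.35), PGM2 (phosphoglucomutase) at 3.99 (SE 0.40), TPS1 (trehalose phosphate synthase) at 2.18 (SE 0.25) and YGP1 at 2.04 (SE 0.24) led by Wald statistic in the authors' deposited table. TFS1 at 3.21 (SE 0.39) and PNC1 (nicotinamidase) at 2.40 (SE 0.29) came next in the authors' deposited table. These markers were chosen with results of the same libraries known, so their count is no independent evidence of a direction. In spt6-S8A, 3 of the 18 were higher, where 5.34% of the 431 adjusted genes were listed in either direction. They were SPI1 at 1.57, YGP1 at 0.84 and GLK1 at 0.75 in the authors' deposited table. For spt6-1004, 12.2% of all adjusted genes were listed. Of the 12 genes of regulators, among them HSF1, MSN2, MSN4, YAK1, RIM15 and the protein kinase A genes, 0 were listed for any mutant. Their transcript levels do not report their activity.

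**Figure D5:**
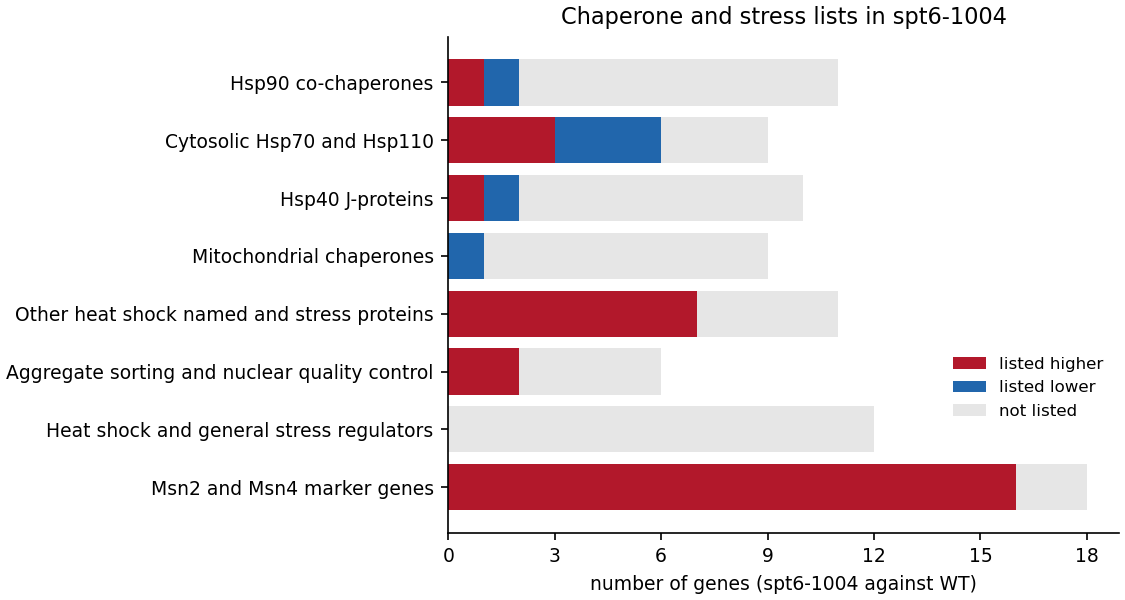
Number of genes listed higher (red), listed lower (blue) or not listed (grey) for spt6-1004 in each of 8 chaperone and stress lists. The Msn2 and Msn4 markers have 16 of 18 genes higher, the regulators 0 of 12 listed, and the Hsp70, Hsp40 and Hsp90 co-chaperone lists hold genes in both directions. Among all adjusted genes 12.2% were listed. The lists were chosen with earlier results of these data known.

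The 9 genes lie on 8 chromosomes, with HSP78 and HSP42 both on chromosome IV. Of the 18 protein-coding genes next to them, 0 were listed in any table, where 12.2% of adjusted genes were listed for spt6-1004. The gaps to these neighbours ran from 185 to 3397 bp. The closest neighbour of HSP12 was IES1 at 266 bp, and that of HSP82 was CIN2 at 237 bp. How many of the 18 were adjusted is not known, so this count describes the listed calls alone.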

How the data were processed

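RNA libraries of 4 genotypes, 12 in all, underlie 3 deposited tables; the 19 chromatin samples were not analysed here. The authors compared genotypes with DESeq2 1.14.1 and used build sacCer3, per the file headers and the submitters' processing notes, which also name Salmon 0.8.1, STAR 2.5.2b, SAMtools 1.3.1, cutadapt 1.10 and bedtools 2.26 without stating what each did. Per the labels' protocols, ribosomal RNA was depleted, ERCC spike-ins were added and stranded paired-end libraries were made; whether the spike-ins set the scaling is unstated.

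Per the file headers, the authors' tables give a base mean (a signal over libraries of unstated scaling), a log2 fold change with its SE, a Wald score, and a p-value and adjusted p-value; rows are cut at an adjusted p of 0.05. The base mean times 12 was whole (tolerance 1e-06) in all rows. This can come from counts fitted with no scaling for depth, or from values scaled and rounded first. In the former case differences in depth between libraries would enter the fold changes and the implied levels; which of these applies is unstated. The authors' DESeq2 version shrinks fold changes towards 0 by default, which would understate the changes of low or variable genes. Depth per library is unknown.

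How many genes were adjusted was worked out from the deposited p-values and adjusted p-values, a step tested on simulated data. Intervals are normal, from the authors' SE. Differences between genes used a z test with Benjamini-Hochberg adjustment, with Python 3.11.15, scipy 1.17.1 and pandas 2.3.3. Coordinates come from RefSeq's gene table (assembly R64, the same build as sacCer3). All 9 members, the listed genes of each companion list up to 6 by Wald statistic, and listed neighbours were to be named. Genes named beyond that rule were chosen after their values were seen. The members and lists were chosen with earlier results of these data known. All list symbols matched the reference.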

Additional observations from a re-analysis of the deposited data

How the results depend on the processing

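Of the 7 members listed for spt6-1004, all 7 stayed at an adjusted p under 0.01, at an absolute log2 fold change of at least 1 and at a base mean of at least 10, where 205, 295 and 177 of the 319 higher genes stayed. With Bonferroni adjustment over 5668 genes 6 stayed, and BTN2, at 1.43, did not (adjusted p = 0.285 by Bonferroni); 125 higher genes stayed. Adjusting the listed spt6-S8A genes over 5668 genes could only remove calls. With 0 members listed there to begin with, its outcome of 0 was fixed and does not test their absence. Errors correlated by 0.5 or -0.5 moved none of the 3 planned pair differences across the threshold, and of all 21 pairs 14 and 12 passed in place of 13. Taking the SE 1.09 times larger raised the limit for HSP12 from 1.53 to 1.66 in spt6-S8A and from 2.19 to 2.39 in spt6-S8E. Each limit is a fixed Wald bound times an SE, so every limit rises by that same factor whatever the data. This does not test whether the limits hold. No paired analysis was possible because the tables hold comparisons and no value per library; for the same reason no replicate could be left out. The planned settings on promoter windows and motifs were not run, since no sequence was used here.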
